A study of Homo sapiens with 15 samples.

Results

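The Krüppel-like factors (KLF proteins) other than KLF1 were followed by their mRNA counts in K562 cells after 1 h with a bromodomain inhibitor. The 10 genes are KLF2, KLF3, KLF4, KLF6, KLF9, KLF10, KLF11, KLF12, KLF13 and KLF16. They were chosen by symbol among 57500 genes, of which 27 belong to the KLF and SP families. Of the 10 genes, 9 had enough counts to be tested, and KLF12 did not.

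K562 is a leukaemia cell line with erythroid features. JQ1 is a small molecule that displaces BET bromodomain proteins from acetylated chromatin, and JQ1-FCPF is its conjugated form in a system built to bring the compound to a Cas9 protein. There were 15 RNA-seq libraries in 5 groups of 3, all at 1 h. The control is labelled WT and NT, although DMSO is the control named in the series text. The other 4 groups were transfected with Cas9FCPF, without or with sgRNA, and received either compound at 1 µM. Transfection and compound therefore both separate the control from the other groups. The sources used here do not give the sequence or the target of the sgRNA. The labels do not say whether the 3 replicates of a group are separate cultures, and all p-values rest on the spread between these libraries, which may be technical. In bulk RNA, fewer cells of a type and less RNA per cell cannot be told apart.

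KLF proteins bind GC-rich and CACCC-type DNA through zinc fingers at their C-terminal end, and their N-terminal parts recruit either coactivators or corepressors. KLF2, KLF4 and KLF6 are mostly activators and are known as early-response genes. KLF3 and KLF12 recruit the corepressor CtBP, and KLF9, KLF10, KLF11, KLF13 and KLF16 recruit the SIN3A and histone deacetylase complex. In erythroid cells KLF1 is the leading activator of this family, and it is known to activate the KLF3 gene, whose product competes with KLF1 for CACCC sites.

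The promoters of KLF2 and KLF11 are shown because these genes moved in opposite directions in the same libraries. They come from RefSeq (GRCh38.p14), in the sense direction. The KLF2 window ends just before the gene's first exon, and the KLF11 window lies upstream of its most downstream first exons, inside an intron of isoforms that start earlier. Capitals mark the GC box GGGCGG on either strand, the cAMP response element TGACGTCA and, in KLF2, a match to the MEF2 consensus. RefSeq promoters were matched for 8 of the 10 genes.
KLF2 chr19:16324576-16324816 (+): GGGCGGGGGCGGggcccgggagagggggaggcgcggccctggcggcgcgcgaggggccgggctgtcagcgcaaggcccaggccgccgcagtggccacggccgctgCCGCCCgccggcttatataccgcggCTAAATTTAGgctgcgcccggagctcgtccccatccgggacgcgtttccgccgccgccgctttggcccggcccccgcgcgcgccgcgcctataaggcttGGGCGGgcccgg
KLF11 chr2:10043971-10044174 (+): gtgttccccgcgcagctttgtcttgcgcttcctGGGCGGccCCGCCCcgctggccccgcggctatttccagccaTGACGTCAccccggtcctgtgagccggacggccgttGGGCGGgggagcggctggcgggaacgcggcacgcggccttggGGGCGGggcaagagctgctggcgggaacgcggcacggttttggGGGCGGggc
Both windows were GC-box rich, with 4 matches in KLF2 and 5 in KLF11. A GC box stood in 41.5% of all 35116 promoter windows of the length used for KLF2 and in 35.8% at the length used for KLF11. The MEF2 consensus had 1 match in KLF2, and 2.75% of windows held one. The cAMP response element of KLF11 was also matched once, and 1% of windows held one. The short CACCC-box core GGGTG was searched on both strands too. It had 1 match in KLF11, overlapping the cAMP response element, and 0 in KLF2, against 47.8% and 53.5% of windows of those lengths. The letters CACGTG and TATAAA had 0 matches in either window.

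Levels are given in CPM (read counts scaled to library size), and levels of different genes are compared only per kilobase (kb) of exon. On the scale of CPM per kb averaged over all libraries, KLF16 stood highest of the 10 genes at 31.2, followed by KLF3 at 9.41 and KLF10 at 4.35. KLF6 at 3.63, KLF9 at 2.64 and KLF13 at 2.44 formed the middle of the order. KLF11 at 1.48, KLF2 at 1.29 and KLF4 at 0.2 followed. KLF1 stood above all of them at 78.2 CPM per kb.

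**Figure D1:**
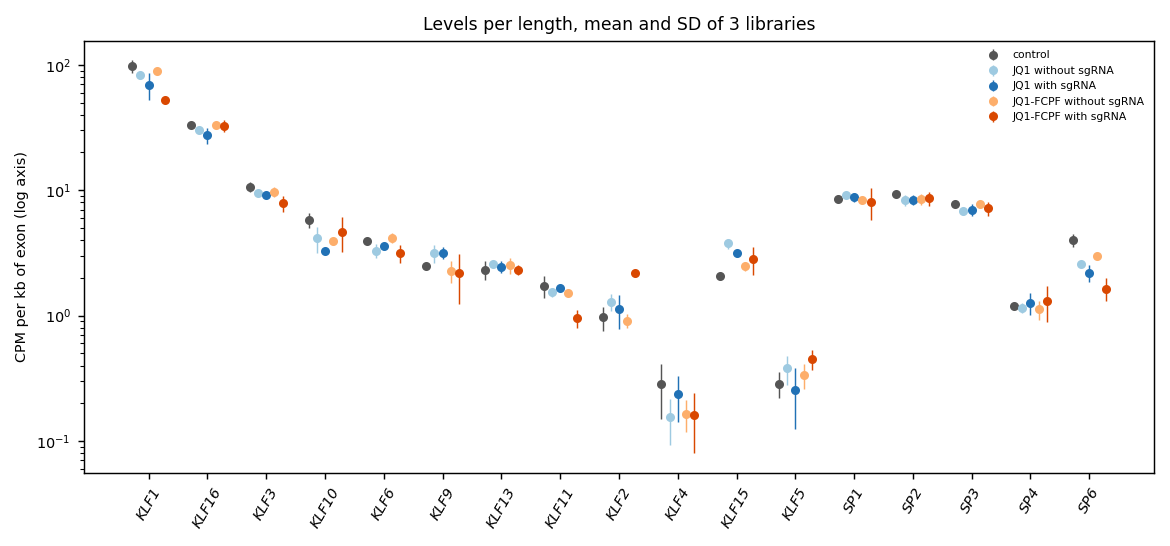
Levels in CPM per kb of exon on a log axis for the 9 tested KLF genes, KLF1 and other family members; points are means of 3 libraries and lines are SD, coloured by group. KLF16 and KLF3 lie highest among the genes described and KLF4 lowest.

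KLF12 was at the limit of detection. Its gene (13:73686089-73995056, minus strand) had between 0 and 3 counts per library, and 7 of 15 libraries were at 0. A count of 0 allows up to 0.236 CPM in the shallowest library, counting error only, so no difference between groups was detectable at this depth.

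Library depth ranged from 12625669 to 17544518 counts, and mitochondrial genes took 2.31% to 7.46%. The label calls the cells lymphoblasts, but 5 B-lymphoid markers summed to 3.24–6.19 CPM and 5 T and NK lymphoid markers to 19.8–34.5 CPM, against 1611–2360 CPM for the erythroid list. CD3D made up most of the T and NK sum at 17.4–32.4 CPM, while MS4A1, PAX5 and CD2 were at or below 0.154 CPM. The 5 epithelial markers were not low and summed to 832–1451 CPM, from KRT8, KRT18, KRT19 and EPCAM. CDH1 of that list was at or below 0.293 CPM. On the first principal component of all tested genes, replicate 2 of JQ1-FCPF with sgRNA lay at 32.2, beyond the JQ1 libraries at 16.8 to 24.6, whereas its replicates 1 and 3 lay at -16.7 and -14.8. On the second component replicates 1, 2 and 3 of that group lay at -40, -16.4 and -27.2. Replicate 1 of JQ1 with sgRNA lay at -12.5 there, and the other libraries at 4.46 to 15. This JQ1 library also had the highest mitochondrial share. Replicate 2 of JQ1-FCPF with sgRNA and replicate 1 of JQ1 with sgRNA are called the 2 libraries that stand apart. Calls of the KLF genes that change without these 2 libraries are given both ways.

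The first question was what the sgRNA adds when the conjugate is present. In JQ1-FCPF with sgRNA against JQ1-FCPF without sgRNA, KLF2 rose 2.39-fold and KLF11 fell 1.59-fold. These 2 of 9 tested genes passed edgeR's quasi-likelihood test, with p-values adjusted over all genes by the Benjamini-Hochberg method and a threshold of 0.05. Of all genes tested, 6.25% passed, 2.06% higher and 4.2% lower. The other 7 KLF genes did not pass. The groups did not overlap for 3 of the 9 genes and for 22.6% of all genes. The median log2 fold change was -0.08 over the 9 genes and 0.01 over all genes.

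KLF2 is a zinc-finger activator known for endothelial flow responses and lymphocyte quiescence (ENSG00000127528, 19:16324817-16327874, plus strand). In the 3 libraries of JQ1-FCPF with sgRNA it had 4.44, 4.09 and 4.61 CPM, against 1.60, 1.85 and 2.08 CPM without sgRNA. The control had 1.53, 2.39 and 1.93 CPM, JQ1 without sgRNA 2.81, 2.86 and 2.12 CPM, and JQ1 with sgRNA 1.51, 2.81 and 2.45 CPM. All 3 libraries with conjugate and sgRNA stood above all 12 others. Among the other 4 groups, JQ1-FCPF without sgRNA had the lowest mean. It did not overlap JQ1 without sgRNA (log2 difference -0.50, edgeR adjusted p = 0.231). The level was low in every group, with 52 to 75 counts per library at its highest and 24 to 43 elsewhere. For the sgRNA under JQ1-FCPF the log2 fold change was 1.26 ± 0.24 (SE; 95% interval 0.75 to 1.76; edgeR adjusted p = 0.0029). It passed the threshold in all 21 alternative settings.

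KLF11, a SIN3A-recruiting repressor induced by TGF-beta in other cells, went the other way (ENSG00000172059, 2:10042849-10054836, plus strand). It had 3.52, 4.72 and 4.85 CPM in JQ1-FCPF with sgRNA, against 7.26, 6.86 and 6.77 CPM without. The control had 9.29, 6.27 and 8.07 CPM, and the 6 JQ1 libraries had 6.41 to 7.85 CPM. The 3 libraries with conjugate and sgRNA were the lowest of all 15. The log2 fold change was -0.67 ± 0.17 (SE; edgeR adjusted p = 0.0232), and the call was lost in 4 of 21 alternatives. These were a fit on the 2 groups alone, and fits without replicate 2 or 3 of JQ1-FCPF without sgRNA or without replicate 1 of JQ1-FCPF with sgRNA, with adjusted p up to 0.0964. The antisense gene that overlaps its last exon had 0 counts in every library.

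A further 3 genes of the same comparison missed the threshold with all libraries and passed it in at least 1 fit with libraries left out. KLF6, an injury-responsive activator, had 15.8, 20.7 and 21.8 CPM with sgRNA against 26.3, 27.3 and 22.8 CPM without, and the groups did not overlap. Its log2 difference of -0.39 missed the threshold (edgeR adjusted p = 0.0685). KLF3, the CtBP-recruiting repressor, had 45.0, 58.2 and 45.8 CPM with sgRNA against 68.0, 57.6 and 58.5 CPM without, a log2 difference of -0.31 (edgeR adjusted p = 0.0922). The 58.2 CPM of replicate 2 lay among the libraries without sgRNA, while replicates 1 and 3 lay below all of them. KLF10, a TGF-beta-induced repressor, had 19.9, 12.3 and 23.8 CPM with sgRNA against 16.4, 15.1 and 15.5 CPM without, and replicate 2 was on the other side of the group without sgRNA from replicates 1 and 3. Its log2 difference was 0.26 with all libraries (edgeR adjusted p = 0.457) and 0.04 without replicate 3 of JQ1-FCPF with sgRNA. Without replicate 2 of JQ1-FCPF with sgRNA, KLF3 passed at -0.43 (edgeR adjusted p = 0.00876), while KLF6 at -0.43 and KLF10 at 0.48 did not (edgeR adjusted p = 0.061 and 0.072). KLF6 passed when replicate 3 of JQ1-FCPF with sgRNA or replicate 1 of JQ1 with sgRNA was left out. Without both libraries that stand apart, 5 of the 9 genes passed, namely KLF2 and KLF10 higher and KLF3, KLF6 and KLF11 lower, and 10.2% of all genes passed in that fit. KLF4, KLF9, KLF13 and KLF16 had log2 differences of -0.12 to -0.03, and their widest interval was that of KLF4, -1.10 to 0.95.

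**Figure D2:**
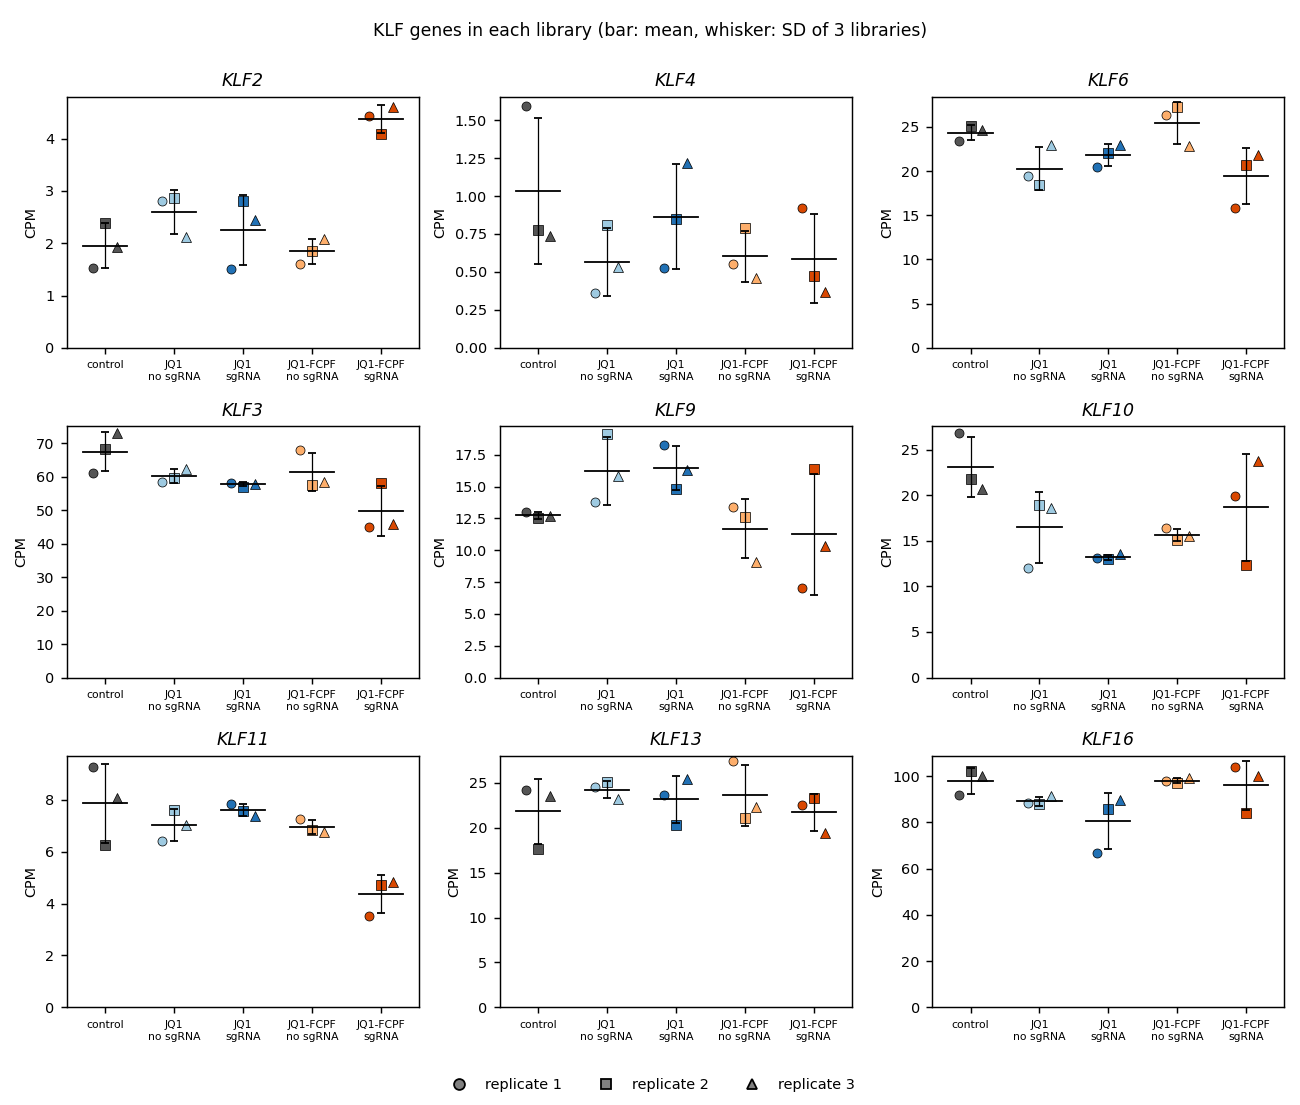
CPM of the 9 tested KLF genes in each of 15 libraries, by group; symbols mark the replicate, bars the mean and whiskers the SD of 3 libraries. KLF2 is highest and KLF11 lowest in the 3 libraries of JQ1-FCPF with sgRNA, and replicate 2 of that group lies apart from replicates 1 and 3 for KLF3, KLF9 and KLF10.

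Under unconjugated JQ1 the sgRNA moved none of the genes past the threshold. In JQ1 with sgRNA against JQ1 without sgRNA, 0 of 9 passed the edgeR test, 0 had an unadjusted p under 0.05, and DESeq2 also called 0; 0.0129% of all genes passed the edgeR test. KLF2 differed by -0.21 on the log2 scale (95% interval -0.73 to 0.31) and KLF11 by 0.12 (-0.22 to 0.45). KLF10 differed by -0.32 (-0.72 to 0.07).

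The difference between these sgRNA effects was tested as an interaction of compound and sgRNA. KLF2 was the 1 gene of 9 that passed, with an effect 1.47 ± 0.35 larger under JQ1-FCPF on the log2 scale (SE; 95% interval 0.74 to 2.19; edgeR adjusted p = 0.0497), and 0.786% of all genes passed. This call was at the threshold: it held in 5 of 21 alternatives, with adjusted p from 0.0158 to 0.154 and log2 differences from 1.25 to 1.65. Among fits that left out 1 library, it held without replicate 2 of JQ1 with sgRNA and without replicate 2 of JQ1-FCPF with sgRNA, and was lost without each of the 13 others. The interaction of KLF11 was -0.78 (edgeR adjusted p = 0.13), and that of KLF6 was -0.50 (edgeR adjusted p = 0.213). KLF10 had 0.58 with all libraries (edgeR adjusted p = 0.333) and 0.81 without replicate 2 of JQ1-FCPF with sgRNA (edgeR adjusted p = 0.0474) or without both libraries that stand apart (edgeR adjusted p = 0.0261), where 2.18% and 3.25% of all genes passed, but 0.36 without replicate 3 of that group.

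**Figure D3:**
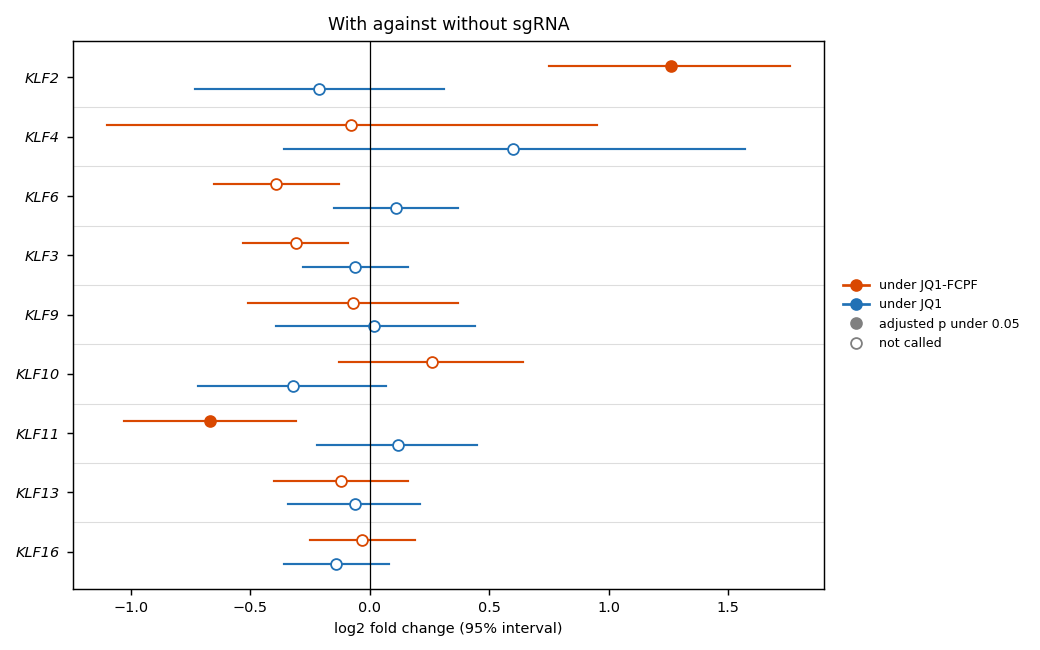
Log2 fold change of libraries with sgRNA against those without, under JQ1-FCPF (orange) and JQ1 (blue), for the 9 tested KLF genes; lines are 95% intervals and filled points passed the test. KLF2 and KLF11 passed under JQ1-FCPF, and none passed under JQ1.

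The second question was what each treatment changed against the control, and all 4 such comparisons share the 3 control libraries. With JQ1-FCPF and sgRNA, KLF2 rose 2.25-fold, KLF11 fell 1.80-fold and KLF3 fell 1.36-fold. These were 3 of 9 genes against 7.21% of all genes. The log2 fold changes were 1.17 for KLF2, -0.85 for KLF11 and -0.44 for KLF3 (edgeR adjusted p = 0.0038, 0.00322 and 0.0125). The first 2 held in all 21 alternatives. KLF9 differed by -0.19 and passed at -0.53 (edgeR adjusted p = 0.0331) when both libraries that stand apart were left out, where 11.1% of all genes passed.

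KLF3 (ENSG00000109787, 4:38664196-38701042, plus strand) had 61.2, 68.3 and 73.0 CPM in the control, against the 45.0, 58.2 and 45.8 CPM of JQ1-FCPF with sgRNA. The groups did not overlap. The call was lost in a fit on these 2 groups alone, without control replicate 3 and without replicate 1 or replicate 3 of JQ1-FCPF with sgRNA, with adjusted p up to 0.085. KLF3-AS1, an antisense RNA whose first exon overlaps KLF3, had 3.89 to 9.63 CPM and passed in none of the 9 comparisons; the strand setting of the counting is not known, so reads in the overlap cannot be assigned.

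With JQ1 and sgRNA, KLF10 fell 1.75-fold and was the 1 of 9 genes that passed, against 14.2% of all genes. KLF10 (ENSG00000155090, 8:102648779-102655902, minus strand) had 26.8, 21.8 and 20.7 CPM in the control and 13.1, 13.0 and 13.5 CPM in JQ1 with sgRNA. The 3 treated libraries were nearly equal and lay below every control library. The log2 fold change was -0.81 ± 0.18 (SE; edgeR adjusted p = 0.00772), and it held in all 21 alternatives. KLF10 was also below the control without sgRNA, where it did not pass: JQ1 gave 12, 18.9 and 18.6 CPM (log2 difference -0.49; edgeR adjusted p = 0.0869) and JQ1-FCPF gave 16.4, 15.1 and 15.5 CPM (-0.56; edgeR adjusted p = 1). Neither of those groups overlapped the control. In JQ1 without sgRNA, KLF10 passed when replicate 2 of JQ1-FCPF with sgRNA was left out of the fit (edgeR adjusted p = 0.0203), where 18.5% of all genes passed, and when both libraries that stand apart were left out (edgeR adjusted p = 0.00629), where 26.9% did.

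With JQ1 and no sgRNA, 0 of 9 genes passed the edgeR test, 2 had an unadjusted p under 0.05, and DESeq2 also called 0, against 12.3% of all genes. KLF9, a glucocorticoid- and thyroid hormone-responsive repressor, had 13.8, 19.1 and 15.8 CPM against 13.0, 12.5 and 12.7 CPM in the control. Both JQ1 groups lay above the control without overlap, at log2 differences of 0.34 and 0.37 (edgeR adjusted p = 0.28 and 0.233). KLF6 had 19.4, 18.4 and 23.0 CPM against 23.4, 25.1 and 24.6 CPM in the control (-0.27; edgeR adjusted p = 0.17). In a fit on these 2 groups alone, KLF6, KLF9 and KLF10 passed, 3 of 9 genes beside 31.4% of all genes in that fit. In all, 4 of the 9 genes did not overlap between these groups, and 41% of all genes did not.

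With JQ1-FCPF and no sgRNA, 0 of 9 genes passed the edgeR test against the control, 1 had an unadjusted p under 0.05 (KLF10) and DESeq2 called 0; 0.00644% of all genes passed. The median log2 difference of the 9 genes was -0.12, and that of all genes was 0.00.

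**Figure D4:**
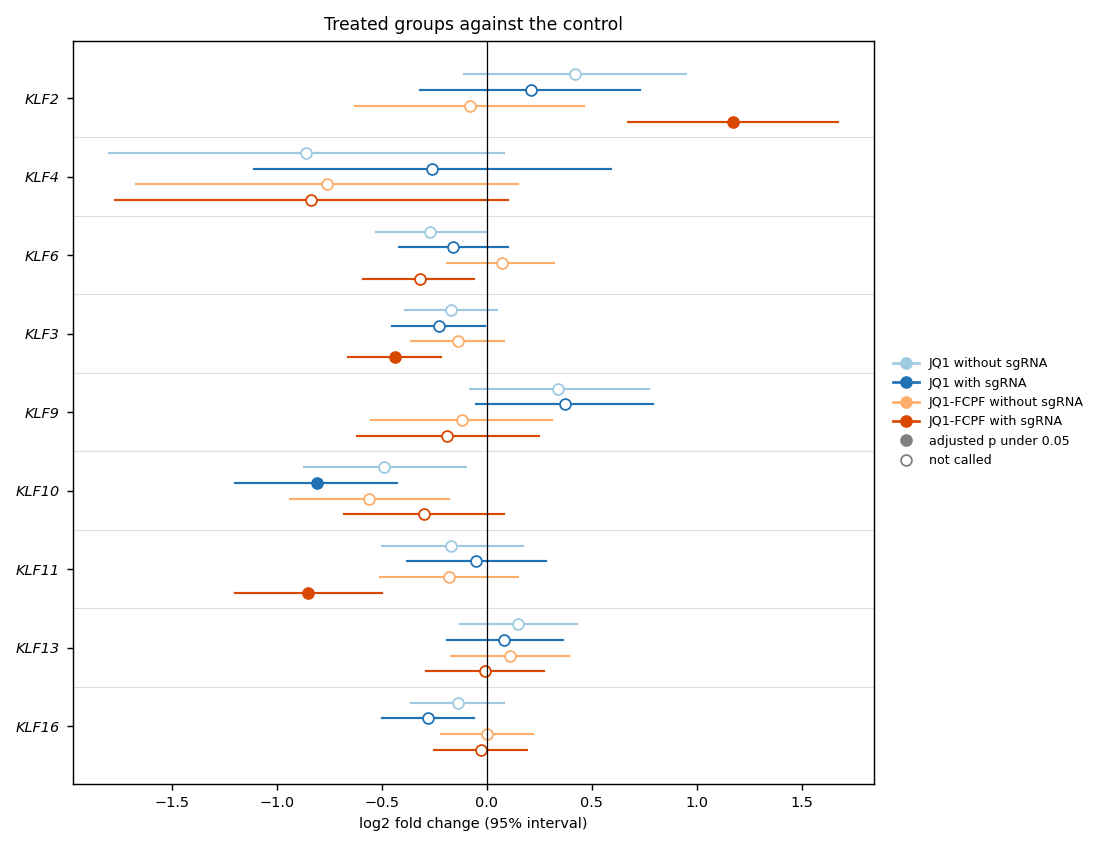
Log2 fold change of each of the 4 treated groups against the control for the 9 tested KLF genes; lines are 95% intervals and filled points passed the test. The filled points are KLF2, KLF3 and KLF11 in JQ1-FCPF with sgRNA and KLF10 in JQ1 with sgRNA.

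The conjugate was then set against JQ1 itself at the same dose and time, in 2 comparisons with p-values adjusted over all genes in each. With sgRNA, KLF2 was 1.95-fold higher under JQ1-FCPF (log2 0.96; edgeR adjusted p = 0.0273) and KLF11 1.74-fold lower (-0.80; edgeR adjusted p = 0.0135), 2 of 9 genes against 2.95% of all genes. KLF9 had 7.05, 16.4 and 10.3 CPM under JQ1-FCPF and 18.3, 14.8 and 16.3 CPM under JQ1. Its replicate 2 again lay inside the JQ1 range and the others below it. The log2 difference of KLF9 was -0.56 (edgeR adjusted p = 0.146) with all libraries and -0.91 (edgeR adjusted p = 0.00149) without that replicate. Without that replicate 6 of 9 genes passed, KLF2, KLF10 and KLF16 higher and KLF3, KLF9 and KLF11 lower, but calls also rose to 17.4% of all genes. Without replicate 1 of the same group 0 of the 9 passed, beside 0.429% of all genes. Without both libraries that stand apart, the same genes passed except KLF16, beside 20.2% of all genes. The count was 1 when replicate 3 of that group, or replicate 1 or 3 of JQ1 with sgRNA, was left out, since KLF2 was then lost. Of all genes, 0.683%, 3.62% and 1.65% passed in those fits, in that order.

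Without sgRNA, 0 of 9 genes differed past the threshold between JQ1-FCPF and JQ1 by edgeR, 2 had an unadjusted p under 0.05 and DESeq2 called 0, against 7.8% of all genes. KLF6 was 0.33 higher (95% interval 0.07 to 0.59) and KLF9 lower at -0.46 (-0.89 to -0.04) on the log2 scale under JQ1-FCPF, with edgeR adjusted p = 0.104 and 0.166. Both passed in a fit on these 2 groups alone, where 20.6% of all genes passed, and without both libraries that stand apart (edgeR adjusted p = 0.0291 and 0.0163), where 22.6% did. KLF9 also passed without replicate 2 of JQ1-FCPF with sgRNA (edgeR adjusted p = 0.0465), beside 14.5% of all genes. KLF11 differed by -0.01 (-0.35 to 0.33) and KLF2 by -0.50 (-1.04 to 0.03).

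KLF4, KLF13 and KLF16 passed the main test in no comparison. KLF4, a pluripotency and differentiation factor (ENSG00000136826, 9:107484852-107490482, minus strand), had 5 to 25 counts per library, and its 95% intervals against the control reached from -1.80 to 0.59. KLF13, a repressor also known as an activator of the chemokine gene CCL5 in T cells (ENSG00000169926, 15:31326855-31435665, plus strand), had 17.7 to 27.5 CPM with overlap between all neighbouring groups in the order of means. KLF16 (ENSG00000129911, 19:1852399-1863568, minus strand) had 66.7 to 104 CPM. Its lowest value was replicate 1 of JQ1 with sgRNA, and the group difference from the control was -0.28 (edgeR adjusted p = 0.0781). Against the control, JQ1 with sgRNA passed for KLF16 only when replicate 2 of JQ1-FCPF with sgRNA was left out (edgeR adjusted p = 0.0348). Without both libraries that stand apart the difference was -0.16 (edgeR adjusted p = 0.14). KLF6 (ENSG00000067082, 10:3775996-3785281, minus strand) and KLF9 (ENSG00000119138, 9:70384597-70414624, minus strand) also passed in no comparison with all libraries.

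Of 17 other KLF and SP genes, 10 were tested. KLF1 fell 1.69-fold with sgRNA under JQ1-FCPF (log2 -0.75; edgeR adjusted p = 0.00139), from 139, 135 and 151 CPM to 78.4, 86.3 and 87.1 CPM. SP6, a relative known from tooth and skin development, fell in the same comparison (log2 -0.88; edgeR adjusted p = 0.00133). It had 14.6, 16.1 and 18.4 CPM in the control, 12.7, 12.7 and 11.4 CPM in JQ1-FCPF without sgRNA and 5.67, 8.26 and 6.08 CPM with it. Against the control, SP6 also fell with JQ1, by log2 -0.63 without sgRNA (edgeR adjusted p = 0.0104) and -0.87 with it (edgeR adjusted p = 0.00152). The former call was lost without replicate 3 of either group, with adjusted p up to 0.0803. In JQ1-FCPF with sgRNA against the control, KLF1 fell by log2 -0.88 (edgeR adjusted p = 0.000236) and SP6 by -1.30 (edgeR adjusted p = 1.19e-05). Both of these calls held in all 21 alternatives. KLF1 fell against the control in JQ1 with sgRNA as well (log2 -0.49; edgeR adjusted p = 0.0194). That call was lost in 4 of 21 alternatives, among them those without control replicate 2 or 3 and without replicate 1 of JQ1 with sgRNA (adjusted p up to 0.0867). KLF15, a metabolic regulator responsive to glucocorticoids, rose 1.82-fold with JQ1 without sgRNA against the control (log2 0.87; edgeR adjusted p = 0.00279), from 5.41, 6.27 and 5.91 CPM to 9.65, 10.8 and 11.7 CPM. It also rose in JQ1 with sgRNA (log2 0.60; edgeR adjusted p = 0.0182), a call that held in 18 of 21 alternatives. In JQ1-FCPF with sgRNA, KLF15 differed from the control by 0.45 and did not pass (edgeR adjusted p = 0.106). Under JQ1-FCPF without sgRNA it had 6.46, 6.99 and 7.61 CPM, below JQ1 at a log2 difference of -0.61 (edgeR adjusted p = 0.0268). That last call was lost when any 1 of the 6 libraries of these groups was left out, with adjusted p up to 0.101.

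**Figure D5:**
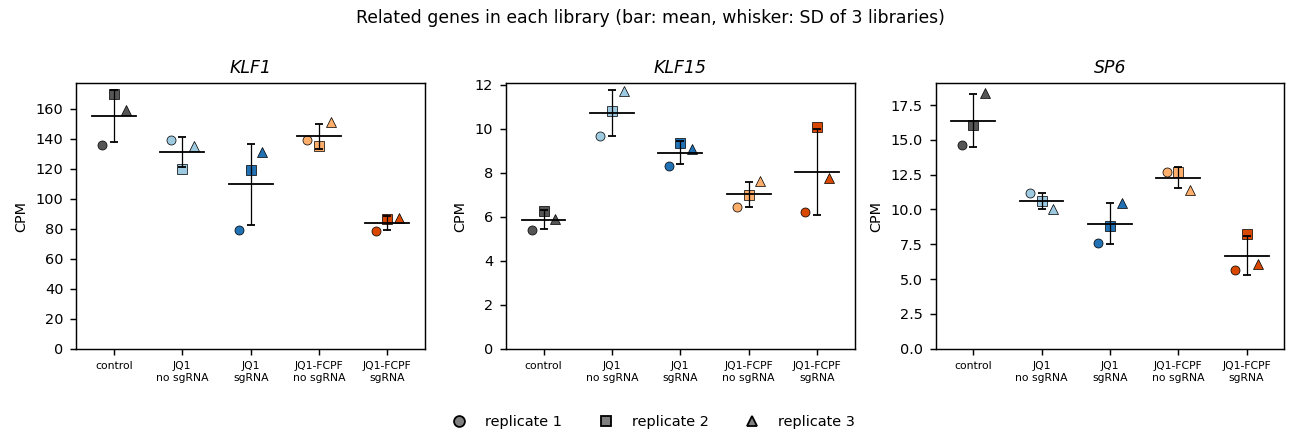
CPM of KLF1, KLF15 and SP6 in each of 15 libraries, by group; symbols mark the replicate, bars the mean and whiskers the SD of 3 libraries. KLF1 and SP6 are low in JQ1-FCPF with sgRNA, and KLF15 is highest in JQ1 without sgRNA.

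Pathways above the KLF genes were taken from lists of their known regulators. In JQ1-FCPF with against without sgRNA, 1 of 8 genes of the MEK5, ERK5 and MEF2 pathway, which induces KLF2 and KLF4, passed: MAPK7, the gene of ERK5, fell (log2 -0.53; edgeR adjusted p = 0.0349), beside 6.25% of all genes. This call was lost in 8 of 21 alternatives, with adjusted p up to 0.149, among them the fits without replicate 2 or 3 of JQ1-FCPF with sgRNA and without each replicate of JQ1-FCPF without sgRNA. Without both libraries that stand apart the difference was -0.39 and did not pass. MAPK7 also fell in JQ1 with sgRNA against the control (log2 -0.60, edgeR adjusted p = 0.0105), where 14.2% of all genes passed. There MAP2K5, the gene of MEK5, rose (0.65, edgeR adjusted p = 0.00858). Between JQ1-FCPF and JQ1 with sgRNA, MAPK7 differed by 0.07 (edgeR adjusted p = 0.836). Its interaction was -0.34 and did not pass (edgeR adjusted p = 0.475). Of 12 TGF-beta pathway genes, which act above KLF10 and KLF11, TGIF1 fell (log2 -1.36; edgeR adjusted p = 5.03e-08) and no other passed the edgeR test, while DESeq2 called 2, TGIF1 and TGIF2. TGIF1 encodes a corepressor of SMAD proteins. The 6 genes around the glucocorticoid receptor, which acts above KLF9, included 0 calls by edgeR in that comparison, 0 by DESeq2 and 0 at an unadjusted p under 0.05.

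With JQ1 without sgRNA against the control, 3 of the 12 TGF-beta pathway genes fell and 0 rose by edgeR, beside 12.3% of all genes called in either direction. SKIL, a SMAD corepressor, fell 2.09-fold (log2 -1.06; edgeR adjusted p = 0.000144), and the inhibitory SMAD7 fell 1.89-fold (-0.92; edgeR adjusted p = 0.00208). The third, SKI, fell 1.26-fold (-0.33; edgeR adjusted p = 0.0475), and its call held in 9 of 21 alternatives. It was lost without any 1 of the 6 libraries compared. DUSP1, a phosphatase gene induced by glucocorticoids, was 1 of the 6 glucocorticoid receptor genes and fell 1.91-fold (-0.93; edgeR adjusted p = 0.00756). SKIL also passed lower than the control in JQ1 with sgRNA (log2 -1.03) and in JQ1-FCPF without and with sgRNA (-0.99 and -1.01). In those groups SMAD7 differed by -1.14, -0.82 and -0.92, and only the -0.82 did not pass (edgeR adjusted p = 0.154). Transfection also separates all these groups from the control, and its part in the falls of SKIL and SMAD7 was not tested.

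Among partners and targets, 0 of 14 cofactor genes (such as CTBP1, SIN3A and EP300) and 0 of 8 ubiquitin ligase genes passed the edgeR test in JQ1-FCPF with against without sgRNA. Of all genes, 6.25% passed in that comparison, so few or none were to be looked for in lists this short. Each list had 1 gene at an unadjusted p under 0.05, and DESeq2 called 0 in both. With JQ1 without sgRNA against the control, CREBBP (log2 -0.45; edgeR adjusted p = 0.0194) and HDAC1 (-0.30; edgeR adjusted p = 0.028) were the cofactor genes that fell. These were 2 of 14, beside 12.3% of all genes called in either direction. CREBBP was lost without control replicate 3 or any replicate of JQ1 without sgRNA, and HDAC1 without any 1 of the 6 libraries, with adjusted p up to 0.157 and 0.0998. Of 18 tested genes known as KLF targets in other cells, 2 passed with sgRNA under JQ1-FCPF, beside 6.25% of all genes. CCND1 (cyclin D1) and E2F2 fell, by log2 -1.07 and -1.03 (edgeR adjusted p = 3.67e-07 and 1.29e-05), and the other 16 did not pass. Both also passed the interaction test, at -0.94 and -1.12 (edgeR adjusted p = 0.00134 and 0.00187), which 0.786% of all genes passed. The median of the 18 was -0.01 and that of all genes 0.01. With JQ1 without sgRNA against the control, 3 of the 18 rose and 2 fell, beside the 12.3% of all genes. The 2 that fell were SMAD7 and the ornithine decarboxylase gene ODC1 (log2 -0.61; edgeR adjusted p = 0.0119), and ODC1 was lost without replicate 3 of either group (adjusted p up to 0.0677). The 3 that rose were HBE1 and CDKN1C (both log2 0.50, edgeR adjusted p = 0.0123 and 0.0171) and CCL5 (2.34, edgeR adjusted p = 0.0226). CCL5 was low, at 0.889 CPM against 0.17 CPM in the control. DESeq2 called 4 genes of this list.

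The nearest protein-coding genes on either side of KLF2 did not move past the threshold with it. EPS15L1, 27365 bp away, differed by 0.13 (95% interval -0.08 to 0.33) and AP1M1, 78910 bp away, by 0.06 (-0.18 to 0.31) in JQ1-FCPF with against without sgRNA. GRHL1, 40572 bp from KLF11, differed by 0.11 (-0.41 to 0.64), and CYS1, 1944 bp away, was too low to be tested. TBC1D1, far from KLF3 at 525021 bp, was 0.42 higher on the log2 scale (edgeR adjusted p = 0.0325), and TLR10 on the other side was not tested. The TBC1D1 call was lost in 5 of 21 alternatives (adjusted p up to 0.148), among them those without replicate 2 or 3 of JQ1-FCPF without sgRNA, without replicate 2 of JQ1-FCPF with sgRNA, and without both libraries that stand apart (log2 0.28). For KLF10, AZIN1 at 170455 bp differed from the control by -0.16 (-0.36 to 0.04) in JQ1 with sgRNA, and ODF1 was not tested.

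Across the 15 libraries, which share treatment groups, depth and preparation, log2 CPM of KLF2 and KLF11 had a Pearson r of -0.83, the lowest of all pairs of the 9 genes. KLF3 and KLF11 had 0.69, and KLF9 and KLF16 had -0.72. Among 9743 protein-coding genes outside the family, those most like KLF2 were H1-10 (r = 0.90), SMAD6 (0.89) and PCBP2 (0.89). SMAD6 had 41.6 ± 1.32 CPM (SD, n = 3) in JQ1-FCPF with sgRNA and 26.6 ± 1.37 CPM without. Those most like KLF11 were ANKRD40 (0.92), AMIGO2 (0.91) and THAP5 (0.91), and those most like KLF3 were IRF2BP2 (0.93), DCLRE1B (0.92) and CCDC71L (0.92). KLF10 was followed less closely, by CNOT4 (0.81), ALG2 (0.81) and TMEM87B (0.80). CNST and NUDT12 (both 0.95) and ULBP1 (0.93) were most like KLF9, and ZNF324B (0.88), TRAF6 and PPP1R9B (both 0.86) most like KLF6. KLF16 had PSMD3 (0.97), H2AX and AHSA1 (both 0.96), KLF13 had MACIR (0.76), PIP5K1A (0.74) and E2F5 (0.72), and KLF4 had TMEM131L (0.66), NOCT (0.63) and MRPL46 (0.60). These are descriptions over libraries and carry no test.

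Since KLF2 is abundant in endothelial cells, markers of other cell types were read beside it. The 5 endothelial markers summed to 4.79–6.93 CPM in JQ1-FCPF with sgRNA and to 4.55–5.60 CPM without, nearly all of it PECAM1, and CDH5, VWF, TEK and KDR each stayed at or below 0.293 CPM. The 5 fibroblast markers summed to 4.41–6.74 CPM with sgRNA and 2.09–2.31 CPM without, mostly COL1A1, and DCN, LUM and COL1A2 were at or below 0.383 CPM. The 5 epithelial markers summed to 893–1331 CPM with sgRNA and 1268–1385 CPM without, nearly all of it KRT8, KRT18, KRT19 and EPCAM. The part of these marker genes, or of cells that express them, in the KLF2 difference was not tested.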

How the data were processed

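RNA was isolated with Trizol and sequenced by Azenta, per the labels' protocols. The authors deposited raw read counts per gene for each library, as whole numbers in a feature-counting layout per the file headers. For the aligner, genome build, library kit and strand setting nothing is stated in the labels or headers. Of 57500 gene identifiers, 56898 were in GENCODE 29 (96.3% with the same start and end), so coordinates are GRCh38, and 40907 were named from an Ensembl table.

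Groups came from the labels. edgeR 4.0.16 in R 4.3.3 (filterByExpr, TMM scaling, quasi-likelihood fit of all 15 libraries, Benjamini-Hochberg adjustment) tested 15517 genes in 9 comparisons. Log2 CPM used a prior count of 2. Alternatives were DESeq2 1.42.0, its size factors, no filter, only the groups compared, a replicate block, each library left out and the 2 libraries that stand apart left out. On simulated data for JQ1-FCPF with against without sgRNA (15248 genes), 67.2% of 1.5-fold, 97% of 2-fold and 100% of 4-fold changes were recovered, with 5.4% false calls. Changes were planted only in genes with mean counts above those of KLF2 and KLF4, so these shares cover neither gene. No simulated library was made to stand apart.

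All KLF genes chosen are named. Other genes were named if called in JQ1-FCPF with against without sgRNA, in the interaction or in JQ1 without sgRNA against control (at most 4 per list by p), as the 3 most alike over libraries (mean CPM at least 5), or as neighbours of called genes. MAP2K5, HBE1, CDKN1C and CCL5 were named beyond this rule. KLF genes, lists and tests were chosen with earlier results of these data known, and the MEF2 motif after the sequence was seen. Limits from counts of 0 cover counting error only. The 95% intervals come from the edgeR fit and rest on the spread between libraries.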

Additional observations from a re-analysis of the deposited data

Results flagged for a closer look

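The sgRNA effect on KLF2 differed between the compounds: it was 1.47 larger on the log2 scale under JQ1-FCPF than under JQ1, by the interaction term (edgeR adjusted p = 0.0497). KLF2 was higher in 3 of 3 libraries with sgRNA than in any without under JQ1-FCPF, and the groups overlapped under JQ1. It rests on 24 to 75 counts per library, and the call held in 5 of 21 alternatives.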

How the results depend on the processing

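For the number of the 9 KLF genes called, fits on only the groups compared gave 1 for the sgRNA under JQ1-FCPF (2 in the main analysis), 3 for JQ1 without sgRNA against control (0), 0 for JQ1-FCPF against JQ1 with sgRNA (2), 2 for the same without sgRNA (0) and 0 for the interaction (1). Of all genes, 2.43%, 31.4%, 0.0746%, 20.6% and 0.532% passed in these fits, in that order. Leaving out both libraries that stand apart gave 5, 1, 5, 2 and 2 KLF genes for the same comparisons in the same order. Beside these, 10.2%, 26.9%, 20.2%, 22.6% and 3.25% of all genes passed. Without a filter, JQ1 without sgRNA against control had 1, beside 4.98% of all genes. JQ1-FCPF against JQ1 with sgRNA then had 4, beside 2.08%. DESeq2 size factors gave 0 for the interaction, beside 0.696% of all genes. Leaving out 1 library at a time gave ranges of 1 to 3 for the sgRNA under JQ1-FCPF, 0 to 1 for JQ1 without sgRNA against control, 1 to 2 for JQ1 with sgRNA against control, 0 to 6 for JQ1-FCPF against JQ1 with sgRNA, 0 to 1 for the same without sgRNA and 0 to 2 for the interaction. The shares of all genes that passed moved too. In the same order they were 2.69% to 8.68%, 2.72% to 18.5%, 4.59% to 21.1%, 0.429% to 17.4%, 0.479% to 14.5% and 0.315% to 2.18%. The counts for the sgRNA under JQ1 and for JQ1-FCPF without sgRNA against control stayed at 0 in all 21 alternatives. At most 0.203% and 0.0254% of all genes passed there. The count for JQ1-FCPF with sgRNA against control stayed between 2 and 4, beside 3.26% to 11.1% of all genes. The uncalled KLF9 difference between JQ1-FCPF with sgRNA and the control (-0.19) ranged from -0.54 to 0.05 with 1 library left out, the latter without replicate 1 of the treated group. The causes were not tested.

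The title letters are not stated to pair the libraries. Deviations of same-letter libraries correlated at -0.238 to 0.311, 4 of 30 pairs were over 0.1, and 4 of 15 libraries correlated best with their own letter. These deviations were taken within groups of 3, some holding a library that stands apart, so they cannot exclude a pairing. With the letter as a replicate block the interaction had 0 calls among the KLF genes, beside 0.599% of all genes. The block moved no other count by over 1.5 times.

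KLF2, KLF4 and KLF12 are limited by depth, with 24 to 75, 5 to 25 and 0 to 3 counts per library.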
